A study of Mus musculus with 15 samples.

Results

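The C-type lectin domain family genes, those whose symbols start with Clec and a number, were followed across basophils, eosinophils and natural helper cells of the mouse lung. Every row with such a symbol was taken, and these made up 31 of the 21110 gene rows. RNA sequencing had been done on 15 libraries of cells sorted from C57BL6/J mice, either naive or dosed intranasally with papain, a protease of the papaya plant that serves as an airway allergen (50 ug per mouse, 3 days). Naive and papain basophils, naive eosinophils, and naive and papain natural helper cells had 2 libraries each. Natural helper cells are lymphocytes without antigen receptors, also named group 2 innate lymphoid cells. Basophils were sorted as FceR1+, CD49b+ and c-kit- cells. The natural helper gate took Lineage- cells with Thy1.2, IL7Ra and CD25, and the eosinophil gate SiglecF+ cells with low Gr1 and no autofluorescence. Eosinophils from papain mice came from 2 gates on surface CD11c, one negative and one positive, again with 2 libraries each. The last library held natural helper cells of papain mice labelled 3'UTRKO, and the labels name neither the gene nor the allele behind that label. Ages, sexes and pooling of animals are not given in the sources used here, and the labels do not say whether libraries of a group came from separate animals, so a p-value reflects the spread between the sequenced libraries, which may be technical.

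C-type lectin receptors are surface proteins that carry the fold of the calcium-dependent sugar-binding lectins, and many recognise glycans or glycolipids of microbes or products of dying cells. Activating members pass a signal through the adaptors FcR-gamma (Fcer1g) or DAP12 (Tyrobp), or through a tyrosine motif in their own tail, to the kinase Syk and the adaptor Card9, while inhibitory members recruit phosphatases such as SHP-1 (Ptpn6) through a motif called ITIM. Others serve as endocytic receptors, as ligands for receptors of natural killer cells, or are secreted. The family is best known from macrophages, dendritic cells and neutrophils.

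Most members sit next to each other in the genome. In the RefSeq annotation of GRCm38.p6, 23 of the 31 lie on chromosome 6, and Clec4a1, Clec4a3, Clec4a4, Clec4b1, Clec4a2, Clec4b2, Clec4n, Clec4d and Clec4e follow one another there with 0 other protein-coding genes in between. A second run, also with 0 in between, holds Clec12a, Clec12b, Clec1b, Clec9a, Clec1a and Clec7a. The deposited values were made on the build mm9, so only names and neighbours were taken from this annotation. Promoters are shown only for members that hold a sequence match, by 1 stretch each, upstream of the gene's start and read 5′ to 3′ on the gene's strand. Of those shown, Clec4d, Clec4e, Clec7a and Clec12a lie in these runs and were higher in naive eosinophils than in naive natural helper cells. Clec5a, which lies in neither run, rose with papain in both basophils and CD11c-positive eosinophils. Capitals mark a match to GAGGAA, the core bound by the myeloid factor PU.1 (TTCCTC on the other strand), or, in the Clec4e line, to TTGCNNAA, a C/EBP motif (TTNNGCAA on the other strand). The Clec4e stretch also holds a GAGGAA match, in lower case, that starts 10 bases after the first capital.

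Clec4d: caccaacttcTTCCTCtgttctaaagcaaa

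Clec4e: actccttgtccTTGTGCAAgagaggaaatt

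Clec7a: aaacaggatctaGAGGAAaaaagggaaatt

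Clec12a: ggaagaaaagtgTTCCTCtttcaatcttat

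Clec5a: gtagaagttcccTTCCTCtttttgccccgc

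In GRCm38.p6 these stretches are chr6:123261857-123261886 on the plus strand for Clec4d, chr6:123289919-123289948 on the minus strand for Clec4e and chr6:129472858-129472887 on the minus strand for Clec7a. That of Clec12a is chr6:129350185-129350214 on the plus strand and that of Clec5a chr6:40585843-40585872 on the minus strand. The RefSeq table gave windows of the same length, from 250 bases before to 50 after a start, for 25 members. GAGGAA was present on either strand in 16 of the 28 windows of these members (a gene can have several), against 28.3% of the 32851 windows of all genes. TTGCNNAA was in 6 of 28 (10.8% of all), the AP-1 motif TGANTCA in 6 of 28 (7.81%) and the GATA motif AGATAA in 1 of 28 (11.2%). Clec4a2, in the first run and at 45 and 58 FPKM in naive eosinophils, had neither GAGGAA nor TTGCNNAA in its window. Among the members with GAGGAA was Clec18a, listed at 0 in all 15 libraries. Such a match is a string of letters, not evidence of binding.

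Values are FPKM, fragments scaled by transcript length and by the number of mapped fragments, rounded to whole numbers in the deposited table. The header names no unit, so this was taken from the values and the named software. Depth is unknown, and no counting error is attached to a value. Per library, FPKM summed to between 374841 and 570208. Differences are given on the scale of log2(FPKM + 1) with their standard error, which understates the change of low genes, and a gene was called when limma's Benjamini-Hochberg adjusted p, taken over all 14257 genes tested, was under 0.05. The defining markers followed the sort labels: the median FPKM of the basophil markers was 471 and 212.5 in naive basophils and at most 1 in the other naive libraries, that of the eosinophil markers 40 and 206 in naive eosinophils, and that of the natural helper cell markers 163 and 204.5 in naive natural helper cells. The papain basophil libraries stood apart: their basophil markers had medians of 26.5 and 57, and the log2 values of the 2 libraries correlated across genes at 0.841, the lowest of the 7 groups with 2 libraries.

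Of the 31 members, 25 had 1 FPKM or more in at least 2 libraries and were tested, and 18 reached a mean of 5 FPKM in at least 1 group. The 6 members not tested were low or listed at 0 (Clec4f, Clec18a and Clec2e at 0 in all 15 libraries). Over 12 comparisons, 13 members were called at least once, 33 calls in all. The share of all genes called at least once was not computed, and single comparisons called up to 28.1% of them. Clec4d, Clec4e, Clec4n and Clec7a together made up 70.6% to 90.8% of the members' summed FPKM in each basophil and eosinophil library and 2.91% to 38.1% in each natural helper library. Reads of near-identical neighbours (Clec4a1 to Clec4a4, Clec4b1 and Clec4b2, the Clec2 genes) may have been split between them by the authors' software, so values within these sets are uncertain.

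**Figure D1:**
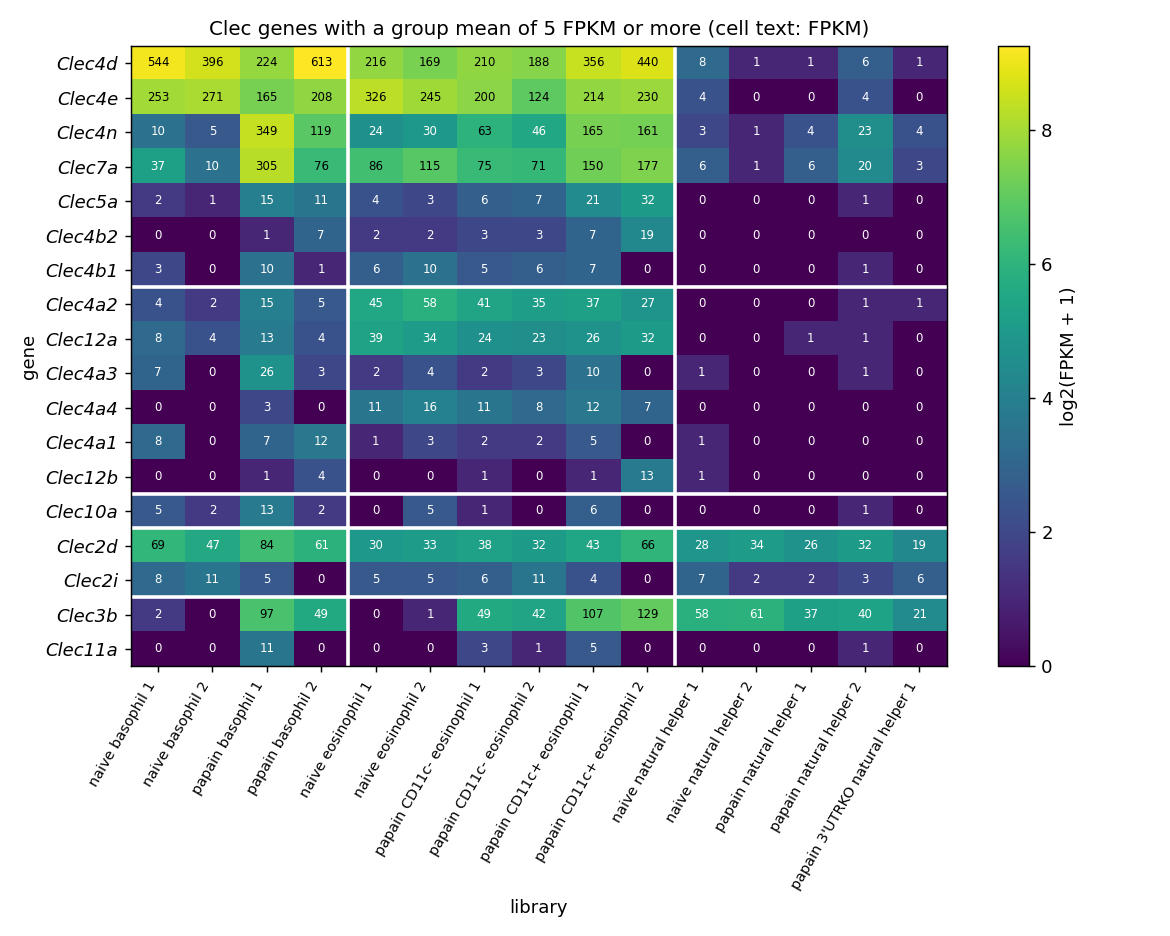
FPKM of the 18 Clec genes with a group mean of 5 or more (rows, white lines between roles) in the 15 libraries (columns, white lines between cell types). Colour is log2(FPKM + 1) and the number in each cell is FPKM. Clec4d and Clec4e are at 124 or more in every basophil and eosinophil library and at 8 or less in every natural helper library.

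The naive libraries show which receptor transcripts the sorted cells of each type held before treatment. Basophils and eosinophils both held large amounts of the activating receptors Clec4d and Clec4e, eosinophils alone stood above both other types in the inhibitory receptors Clec4a2, Clec4a4 and Clec12a, and natural helper cells were low in nearly all receptors and high in the secreted Clec3b. Clec4e, known as Mincle, is a sensor of mycobacterial glycolipids. It had 253 and 271 FPKM in naive basophils, 326 and 245 in naive eosinophils, and 4 and 0 in naive natural helper cells. Its closest neighbour Clec4d, which acts with Mincle, had 544 and 396 FPKM in naive basophils, 216 and 169 in naive eosinophils, and 8 and 1 in naive natural helper cells. Both genes separated the granulocytes from natural helper cells with no overlap of libraries. The share of all genes without overlap was not computed, here or in other comparisons. For Clec4d the log2 difference from natural helper cells was 6.78 ± 0.78 in basophils (adjusted p = 0.000557) and 5.50 ± 0.78 in eosinophils (adjusted p = 0.000922). For Clec4e it was 6.88 ± 0.82 (adjusted p = 0.000639) and 6.99 ± 0.82 (adjusted p = 0.000327). In the comparison of basophils with natural helper cells both calls were lost in a fit of those 2 groups alone (adjusted p = 0.0523 and 0.0549). Between naive basophils and eosinophils neither was called: the Clec4d values did not overlap and differed by 1.28 ± 0.78 (adjusted p = 0.377), and the Clec4e values overlapped. Since these are bulk libraries, fewer cells with a transcript and less transcript per cell cannot be told apart. The naive basophil libraries also held markers of other cells. Their 4 mast cell markers had medians of 89.5 and 97.5 FPKM, against 1.5 and 6.5 in naive eosinophils. Of these markers Kit went the other way, with 7 and 7 FPKM against 27 and 19. The B cell markers of naive basophils summed to 202 and 383 FPKM, against 57 and 44 in naive eosinophils. The part of such cells in the basophil values was not tested.

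Of the 7 inhibitory receptors and relatives tested, 3 were higher in naive eosinophils than in each other naive type. Clec4a2, the ITIM receptor DCIR, had 45 and 58 FPKM there, 4 and 2 in naive basophils and 0 in both naive natural helper libraries. Clec12a, an ITIM receptor also called MICL that recognises uric acid crystals, had 39 and 34 FPKM in naive eosinophils, 8 and 4 in naive basophils and again 0 in both natural helper libraries. Clec4a4, the DCIR2 receptor, had 11 and 16 FPKM in naive eosinophils and was listed at 0 in the other naive libraries. None of the 3 overlapped between eosinophils and either other type, but the share of all genes without overlap was not computed. Of all genes, 11.6% were called higher in naive eosinophils than in natural helper cells and 8.66% lower in naive basophils than in eosinophils. The share with both calls was not computed. Basophils lay below eosinophils by -3.75 ± 0.50 for Clec4a2 (adjusted p = 0.00127), -2.48 ± 0.45 for Clec12a (adjusted p = 0.00668) and -3.84 ± 0.56 for Clec4a4 (adjusted p = 0.00214). The Clec12a call was lost without naive basophil library 2 (adjusted p = 0.0567) or naive eosinophil library 1 (adjusted p = 0.0531) and in a fit of the 2 groups alone (adjusted p = 0.0672). Against natural helper cells all 3 were called in eosinophils, and Clec12a (2.75 ± 0.45, adjusted p = 0.00337) and Clec4a2 (1.95 ± 0.50, adjusted p = 0.025) also in basophils, the latter call being lost without any 1 of the 4 libraries. None of these 3 was called in either papain eosinophil gate: the 4 papain eosinophil libraries ranged from 27 to 41 FPKM for Clec4a2, 23 to 32 for Clec12a and 7 to 12 for Clec4a4.

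Clec7a, the beta-glucan receptor Dectin-1, and Clec4n, the mannan receptor Dectin-2, were at intermediate levels in naive cells. Clec7a had 86 and 115 FPKM in naive eosinophils, 37 and 10 in naive basophils and 6 and 1 in naive natural helper cells. Clec4n had 24 and 30 in naive eosinophils, 10 and 5 in naive basophils and 3 and 1 in naive natural helper cells. Libraries of naive eosinophils lay above those of both other types for each gene. Against natural helper cells eosinophils were higher in both (Clec7a 4.75 ± 0.87, adjusted p = 0.00369, and Clec4n 3.30 ± 0.74, adjusted p = 0.0105), and the Clec4n call was lost without naive eosinophil library 2 or natural helper library 2 (adjusted p = 0.075 at most). Against basophils neither passed the test (adjusted p = 0.127 and 0.171). Clec5a, a DAP12-coupled receptor also named MDL-1, was low at 4 and 3 FPKM in naive eosinophils and 2 and 1 in naive basophils, and listed at 0 in naive natural helper cells.

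Neutrophil markers were also high in the eosinophil libraries. The 8 of them summed to 8895 to 16568 FPKM in naive eosinophils. They summed to 264 to 537 in naive basophils and 21 to 173 in naive natural helper cells. Of these 8 markers 6 were called higher in eosinophils than in natural helper cells, beside 11.6% of all genes. Among them Retnlg, a secreted product of neutrophils, had 13759 and 7600 FPKM in naive eosinophils, S100a8, a calcium-binding protein of neutrophils and monocytes, 1417 and 560, and the granule gene Camp 0 and 27. The 11 monocyte and macrophage markers summed to 907 to 1159 FPKM in naive eosinophils, 169 to 788 in naive basophils and 156 to 253 in naive natural helper cells. Clec4d, Clec4e, Clec7a and Clec12a are known from these cells too, and their part in the eosinophil values was not tested. Across the 15 libraries the log2 values of Clec4a2, Clec12a and Clec4a4 correlated with the mean of the eosinophil markers at Pearson 0.964, 0.919 and 0.98, and with that of the neutrophil markers at 0.933, 0.915 and 0.845, a description of libraries that share cell types.

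In counts, naive eosinophils against natural helper cells had 8 members higher and 1 lower of 25 tested, beside 28.1% of all genes called (11.6% higher and 16.5% lower). The activating receptors gave 5 of the 8 (of 9 tested) and the inhibitory ones 3 (of 7). The median over the members was 1.29, against -0.21 over all genes. Naive basophils against natural helper cells had 5 members higher and 2 lower (20.6% of all genes called, 6.96% higher and 13.6% lower), with 4 calls without any 1 library and 3 in a fit of those groups alone. Median-ratio scaling made this 7 higher and 2 lower (Clec2d and Clec7a added) and quantile normalization 8 and 2 (Clec4n also added), while the share of higher genes among all called went from 33.8% to 50.9% and 50.1%. Naive basophils against eosinophils had 0 higher and 4 lower (14.0% called, 5.30% higher and 8.66% lower). One of the 4, Clec2g, a relative of the natural killer receptor ligands, was 0 and 0 against 1 and 1 FPKM, a step of the rounding. It was also 1 and 1 in naive natural helper cells and was called in the same way there.

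Clec2d, also called Clr-b, is the ligand through which cells engage the inhibitory receptor encoded by Klrb1b, and it was the member present at 19 FPKM or more in every library. It had 69 and 47 FPKM in naive basophils, 84 and 61 in papain basophils, 30 and 33 in naive eosinophils and 28 and 34 in naive natural helper cells. The naive basophil libraries lay above those of the other naive types, but the difference of 0.84 ± 0.27 from eosinophils was not called (adjusted p = 0.0798). It was called after median-ratio scaling (1.14, adjusted p = 0.0154) and quantile normalization (1.18, adjusted p = 0.0103), which made that comparison 1 higher and 4 lower. In papain cells Clec2d had 38 and 32 FPKM in CD11c-negative and 43 and 66 in CD11c-positive eosinophils, 26 and 32 in natural helper cells and 19 in the 3'UTRKO library. Klrb1b, its receptor, was also highest in naive basophils, with 47 and 29 FPKM, against 4 and 16 in naive eosinophils (2.04 ± 0.56, adjusted p = 0.043) and 12 and 7 in naive natural helper cells (1.90 ± 0.56, adjusted p = 0.0436). Clec2i, or Clr-g, the ligand of another receptor of that family, had 8 and 11 FPKM in naive basophils, 5 and 0 in papain basophils and 0 to 11 elsewhere. Its papain difference in basophils was -2.09 ± 0.94 (adjusted p = 0.139).

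**Figure D2:**
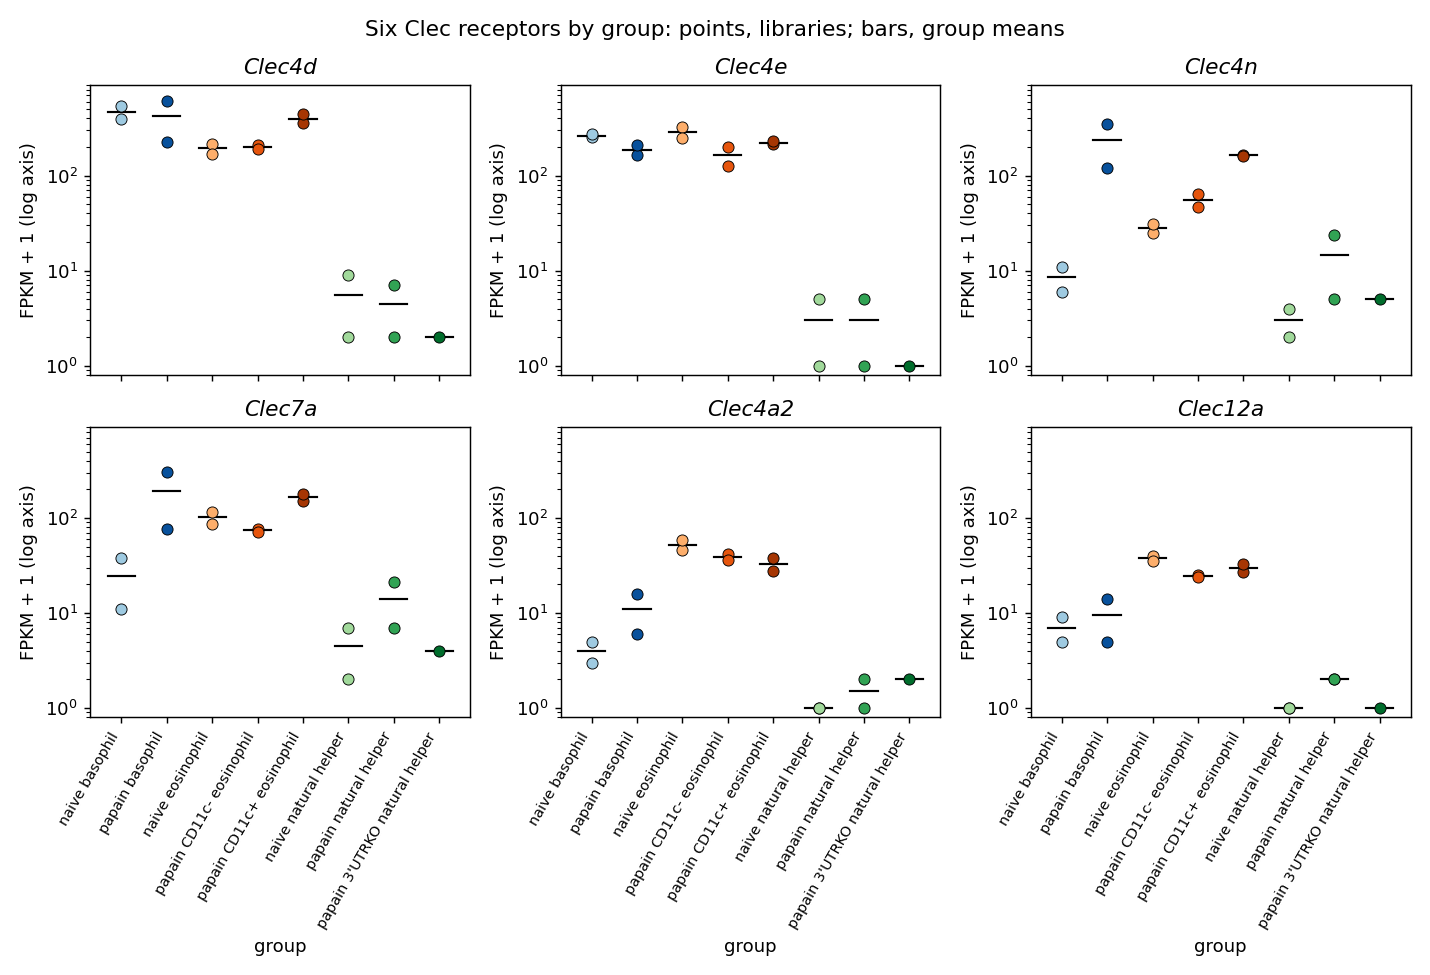
FPKM + 1 on a log axis for 4 activating (Clec4d, Clec4e, Clec4n, Clec7a) and 2 inhibitory (Clec4a2, Clec12a) receptors in the 8 groups. Points are libraries and bars are group means. Clec4n in papain basophils (349 and 119 FPKM) lies above naive basophils (10 and 5), whereas the Clec4d libraries of the 2 groups overlap.

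How papain changed these genes in basophils was asked with 2 libraries a side. Clec4n, Clec7a, Clec5a and Clec4b2, all activating receptors, were higher after papain, together with the secreted Clec3b and the low vascular genes Clec14a and Clec1a, while Clec4d and Clec4e were not called. Of 25 members 7 rose (4 activating receptors, 1 of the inhibitory receptors and relatives, 1 secreted and 1 other membrane protein) and 0 fell, beside 26.0% of all genes called (22.1% higher and 3.88% lower). The members' median was 1.23 and that of all genes 0.50, so changes are to be read against 0.50. After quantile normalization the median of all genes was -0.08 and 6 members were higher and 1, Clec2i (-2.70, adjusted p = 0.0314), lower. Of all genes called, 85.1% were higher as deposited, 65.5% with median-ratio scaling and 45.4% with quantile normalization.

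Clec4n went from 10 and 5 FPKM to 349 and 119, a rise of 4.66 ± 0.74 (adjusted p = 0.00355). Both papain libraries lay far above both naive ones, and papain library 1 was the higher. Clec7a went from 37 and 10 to 305 and 76 (2.91 ± 0.87, adjusted p = 0.038), and Clec5a from 2 and 1 to 15 and 11 (2.50 ± 0.38, adjusted p = 0.0029). The Clec4n and Clec5a calls were kept without each of the 4 libraries in turn. The Clec7a call was lost without papain library 1 (1.91, adjusted p = 0.189) or naive library 2 (2.01, adjusted p = 0.242). Clec4b2, a DCAR receptor, went from 0 and 0 to 1 and 7, and its call was kept in 1 of 4 such fits.

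Clec4d had 224 and 613 FPKM in papain basophils, which enclosed the naive values of 544 and 396 (-0.32 ± 0.78, adjusted p = 0.82). Clec4e had 165 and 208, just under the naive 253 and 271 (-0.50 ± 0.82, adjusted p = 0.71). Both thus stayed among the more abundant members, and neither difference passed the test. The inhibitory Clec4a2 (15 and 5 after papain, adjusted p = 0.0785) and Clec12a (13 and 4, adjusted p = 0.648) were not called either. Clec4a3 (7 and 0, then 26 and 3), Clec10a (5 and 2, then 13 and 2), a galactose-binding receptor of macrophages, and the growth factor Clec11a (0 and 0, then 11 and 0) had their highest values of all 15 libraries in papain library 1 and were not called. Clec4b1 had 3 and 0, then 10 and 1, a value of 10 that 1 naive eosinophil library also reached. Clec4a1 had 8 and 0, then 7 and 12, and Clec12b 0 and 0, then 1 and 4, with no call. Clec14a, a surface protein of endothelial cells, was listed at 0 in naive and had 2 and 4 FPKM in papain basophils (1.95 ± 0.40, adjusted p = 0.0096). Clec1a went from 0 and 0 to 2 and 1 (1.29 ± 0.30, adjusted p = 0.0148). Both rest on values of a few FPKM, and each call was lost without either of 2 libraries, naive library 2 being in both pairs.

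Markers of other cells moved along with these genes. The 8 alveolar macrophage markers summed to 50 to 75 FPKM in naive and 364 to 11985 in papain basophils, with 4 called higher. The 11 monocyte and macrophage markers summed to 169 to 788 and 1231 to 4964, with 2 called higher. Of all genes 22.1% were called higher here, a share that 2 of 11 did not exceed. Papain library 1 held most of the macrophage marker signal: Chi3l3, a secreted product of alveolar macrophages, had 10500 FPKM there and 109 in library 2. In library 2 the marker Krt79 was at 0 and Ear10 at 1, but other markers were raised there too. Fabp4 had 127 FPKM and Fabp5 78 in papain library 2, against 10 and 2, and 23 and 8, in naive basophils. The median of the alveolar list was 20.5 in papain library 2 and 2.5 and 2 in naive basophils. Without library 1 the rise of Clec4n was 3.89 (adjusted p = 0.0167) and 5 members were higher and 1, Clec2i, lower. The 8 neutrophil markers summed to 264 to 537 and 3215 to 7286, with 3 called higher. The 8 endothelial markers summed to 29 to 51 and 118 to 368, with 6 called higher. The part of such cells in the rise of each receptor was not tested. Calls in this comparison also depended on the fit: with the 4 basophil libraries alone 0 members were called, and without naive library 2 there were 3.

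**Figure D3:**
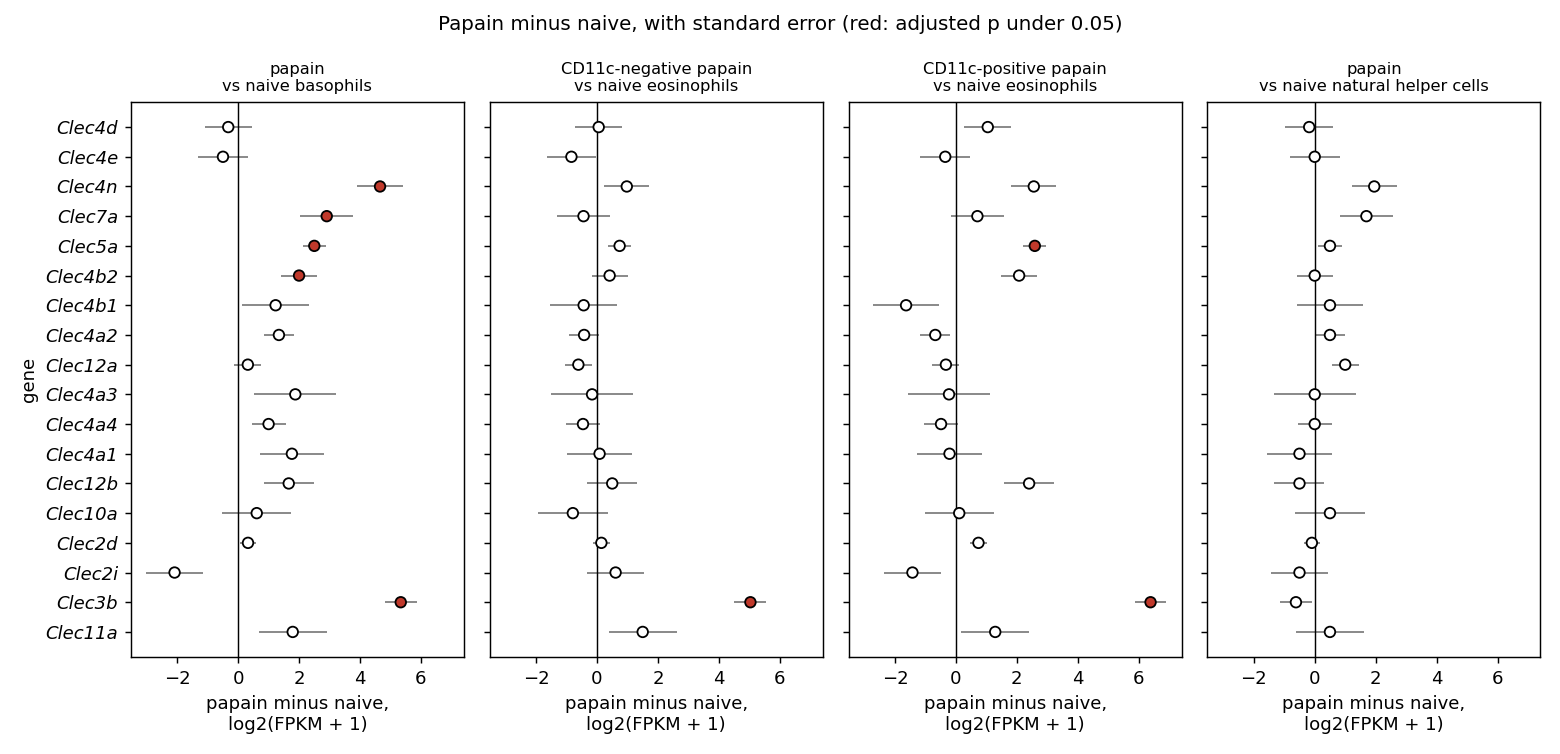
Papain minus naive on the log2(FPKM + 1) scale with standard errors for 18 Clec genes, in basophils, both eosinophil gates and natural helper cells. Filled red points passed an adjusted p of 0.05. Clec4n, Clec7a, Clec5a, Clec4b2 and Clec3b are filled in basophils, Clec3b and Clec5a in CD11c-positive eosinophils, Clec3b in CD11c-negative ones and none in natural helper cells.

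In eosinophils few members passed the test after papain. In the CD11c-negative gate 1 of 25 members was higher, Clec3b, and 0 lower (2.24% of all genes called, 1.87% higher and 0.372% lower). In the CD11c-positive gate Clec3b and Clec5a were higher and Clec2g lower, 3 of 25 (12.1% of all genes, 9.93% higher and 2.20% lower). With a pseudocount of 2 or the filter at 5 FPKM this was 4 higher and 0 lower, Clec4n and Clec4b2 being added, and with quantile normalization 3 and 2. Of all genes called in that gate 81.8% were higher as deposited, 56.7% with median-ratio scaling and 51.2% with quantile normalization, which moved the median of all genes from 0.34 to 0.03 and -0.10. Both gates are compared with the same naive libraries. Clec5a had 4 and 3 FPKM in naive, 6 and 7 in CD11c-negative and 21 and 32 in CD11c-positive eosinophils. It had no overlap among the 3 groups, a trait whose share over all genes was not computed. Its rise in the CD11c-positive gate was 2.59 ± 0.38 (adjusted p = 0.00455) and was kept under all 13 alternatives. Clec2g went from 1 and 1 to 0 and 0, again a step of the rounding.

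Clec4n followed the same order without a call. It had 24 and 30 FPKM in naive, 63 and 46 in CD11c-negative and 165 and 161 in CD11c-positive eosinophils. The 3 groups did not overlap, but the share of all genes with such groups was not computed. The rise of 2.56 ± 0.74 in the CD11c-positive gate missed the threshold (adjusted p = 0.0568). It passed with a pseudocount of 2, a stricter filter, quantile normalization or only the 2 groups fitted (Clec4n adjusted p between 0.0145 and 0.0456), and without any 1 of the 4 libraries it did not (0.124 to 0.237). Clec7a had 75 and 71 in the CD11c-negative and 150 and 177 in the CD11c-positive gate, around the naive 86 and 115 (adjusted p = 0.934 and 0.63). Clec4d had 210 and 188, then 356 and 440, against 216 and 169 in naive cells (adjusted p = 1 and 0.416). Clec4e had 200 and 124, then 214 and 230, against 326 and 245 (adjusted p = 0.739 and 0.854). For each of these the CD11c-positive libraries lay above the CD11c-negative ones, without a call. Clec4b2 had 2 and 2 FPKM in naive, 3 and 3 in CD11c-negative and 7 and 19 in CD11c-positive eosinophils (2.08 ± 0.59 against naive, adjusted p = 0.0539). In CD11c-positive library 2 Clec12b, an inhibitory receptor, stood at 13 FPKM against 0 or 1 in the other eosinophil libraries, while Clec4a1, Clec4a3, Clec4b1, Clec10a, Clec11a and Clec2i were listed at 0 there and at 4 to 10 in library 1.

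Set directly against each other, the CD11c-positive and CD11c-negative gates had 0 of 25 members called by limma (6 at an unadjusted p under 0.05), where 0.0561% of all genes were called. The difference of Clec5a was 1.85 ± 0.38 (adjusted p = 0.319) and that of Clec4n 1.58 ± 0.74 (adjusted p = 0.578). Without CD11c-positive library 1, 2 members were called, Clec5a and Clec12b. Markers of other cells differed between these groups too. The 8 alveolar macrophage markers summed to 183 to 269 FPKM in naive, 323 to 436 in CD11c-negative and 1148 to 1344 in CD11c-positive eosinophils. The 11 monocyte and macrophage markers summed to 907 to 1159, 729 to 1086 and 1888 to 2088. The sum of the alveolar list thus had the order of Clec5a and Clec4n over the 3 groups, and that of the monocyte and macrophage list did not. Members of the latter list were mixed. C1qb had that order, with 0 and 3, then 7 and 7, then 70 and 98 FPKM. Csf1r ran the other way, with 125 and 201, then 97 and 69, then 56 and 47. Sums over lists of unrelated cells had the order of Clec5a and Clec4n as well. Fibroblast markers summed to 1 to 3, 227 to 359 and 498 to 545 FPKM, and lymphatic endothelial markers to 1 to 3, 20 to 36 and 77 to 85. Platelet and megakaryocyte markers summed to 16 to 29, 40 to 41 and 97 to 126. In the CD11c-positive gate single genes gave most of the last 2 lists' sums. Pdpn had 63 and 63 FPKM on the lymphatic list and Pf4 64 and 109 on the platelet list. The medians of these lists there were 1 and 1, and 1.5 and 0. The 8 neutrophil markers summed to 8895 to 16568, 6483 to 9173 and 12369 to 14241. Their part in these differences was not tested. Across all 15 libraries the log2 values of Clec4n correlated with the mean of the monocyte and macrophage markers at Pearson 0.94, and those of Clec5a at 0.924. With the neutrophil markers the values were 0.852 and 0.905, and with the alveolar macrophage markers 0.834 and 0.676. These describe libraries that share cell types and treatment.

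In natural helper cells the receptors were again low after papain. Of 25 members 0 were called by limma (1 at an unadjusted p under 0.05, Clec4n), beside 0.786% of all genes. Clec4n went from 3 and 1 FPKM to 4 and 23 (1.95 ± 0.74, adjusted p = 0.355), and Clec7a 6 and 1, then 6 and 20 with papain (1.70 ± 0.87, adjusted p = 0.536). In both the high value came from papain library 2, which also had 1023 FPKM of summed alveolar macrophage markers against 204 in papain library 1. Clec4d had 1 and 6 and Clec4e 0 and 4 after papain. The 3'UTRKO library had 4 FPKM of Clec4n, 3 of Clec7a, 1 of Clec4d and 0 of Clec4e, and against the other papain natural helper cells 0 of 25 members were called by limma (1 at an unadjusted p under 0.05, Clec2h, at 1 FPKM against 0), with 0.568% of all genes called. This comparison has 1 library on one side, which was assumed to vary like the other groups.

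Clec3b encodes tetranectin, a secreted protein that binds plasminogen and is made by stromal cells, and it had the widest papain differences of the family. In basophils it went from 2 and 0 FPKM to 97 and 49 (5.34 ± 0.52, adjusted p = 0.000453). In eosinophils it went from 0 and 1 to 49 and 42 in the CD11c-negative gate (5.04 ± 0.52, adjusted p = 0.00297) and to 107 and 129 in the CD11c-positive gate (6.39 ± 0.52, adjusted p = 0.000506). All papain libraries of both cell types thus lay above all their naive ones. Natural helper cells had it before treatment, with 58 and 61 FPKM in naive, 37 and 40 in papain and 21 in 3'UTRKO cells, and the papain difference of -0.62 ± 0.52 was not called (adjusted p = 0.766). Naive natural helper cells stood above naive basophils (-5.13 ± 0.52 for basophils minus natural helper cells, adjusted p = 0.000297) and naive eosinophils (-5.42 ± 0.52, adjusted p = 0.000125). The papain response differed between basophils and natural helper cells by 5.95 ± 0.74 (adjusted p = 0.00492) and between natural helper cells and CD11c-negative eosinophils by -5.65 ± 0.74 (adjusted p = 0.0168). It was the 1 member of 25 called in each of these tests, in which 6.75% and 1.21% of all genes were called. The Clec3b response of basophils minus that of CD11c-negative eosinophils was 0.30 ± 0.74 (adjusted p = 0.894), and 0 of 25 members were called by limma there (6 at an unadjusted p under 0.05, 2.36% of all genes).

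The 7 fibroblast markers, among them collagens and the matrix protein decorin (Dcn), were also higher in papain basophils and eosinophils and present in naive natural helper cells. They summed to 3 to 10 FPKM in naive basophils and 215 to 723 in papain basophils, to 1 to 3 in naive, 227 to 359 in CD11c-negative and 498 to 545 in CD11c-positive eosinophils, and to 206 to 322 in naive, 325 to 328 in papain and 148 in 3'UTRKO natural helper cells. In natural helper cells their median papain difference was 0.57, with 0 of 7 called, where that of Clec3b was -0.62. All 7 were called higher in papain basophils and CD11c-positive eosinophils and 6 in the CD11c-negative gate. Of all genes 22.1%, 9.93% and 1.87% were called higher there. Pdgfra and Lum, 2 defining markers, were at 0 in all naive basophil and eosinophil libraries and at 1 to 9 and 4 to 20 in the papain ones, and at 1 to 5 and 10 to 26 in natural helper cells. The log2 value of Clec3b correlated with the mean of the fibroblast markers at Pearson 0.976 across the 15 libraries, a description over libraries that share treatment and cell type. The part of stromal cells in the Clec3b values was not tested.

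**Figure D4:**
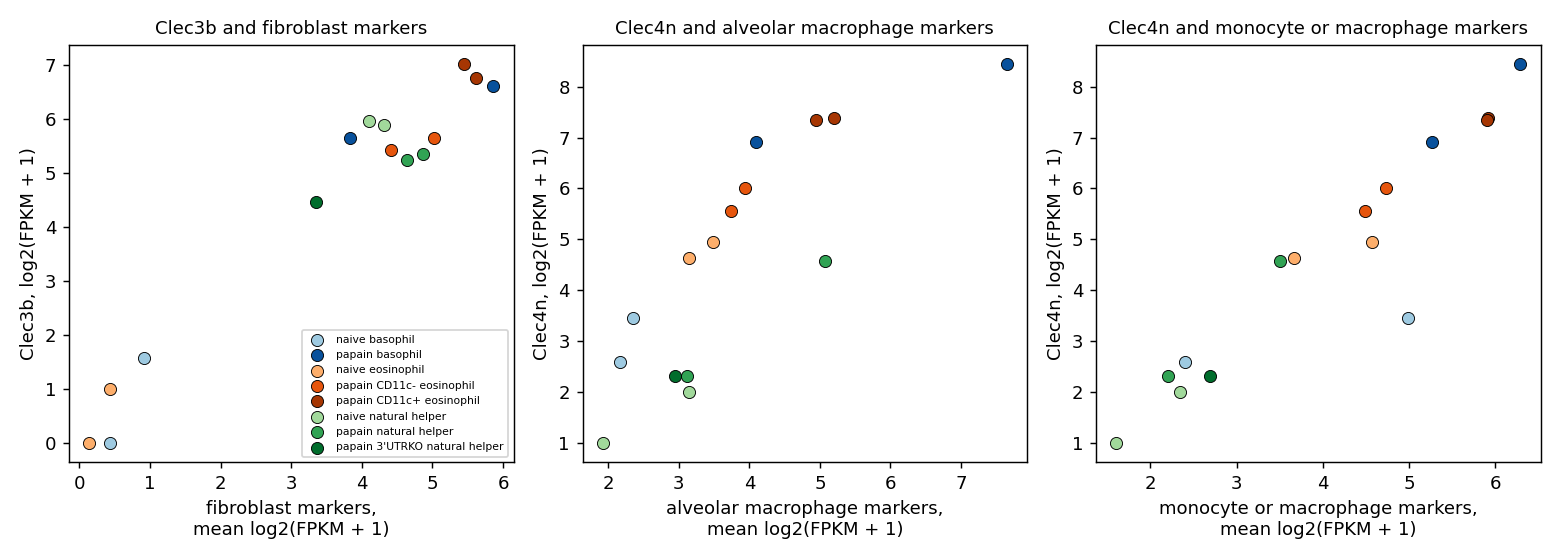
Log2(FPKM + 1) of Clec3b against the mean of 7 fibroblast markers, and of Clec4n against the means of 8 alveolar macrophage and 11 monocyte and macrophage markers, in the 15 libraries. Each point is a library, coloured by group. Clec3b is near 0 only where fibroblast markers are, and Clec4n is highest in papain basophil library 1, where both macrophage lists are highest.

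The adaptors and signalling genes that serve these receptors were described from a fixed list of 20, of which 19 were in the table and tested, Syk not being analysed here. Of these, 10 were higher and 2 lower in naive eosinophils than in natural helper cells, and 9 higher and 2 lower in naive basophils, beside 28.1% and 20.6% of all genes called. Tyrobp, the adaptor of Clec5a, had 2303 and 1939 FPKM in naive eosinophils, 873 and 1066 in naive basophils and 25 and 2 in naive natural helper cells. Fcer1g, the adaptor of Clec4n, Clec4d and Clec4e, had 850 and 853, 581 and 563, and 22 and 10. The adaptors were thus abundant in the cell types that carried the receptors, and each was called against natural helper cells (Tyrobp 7.90 ± 0.95 in eosinophils and 6.77 ± 0.95 in basophils, Fcer1g 5.74 ± 0.51 and 5.17 ± 0.51). Eosinophils also exceeded basophils in Ptpn6, the SHP-1 phosphatase used by ITIM receptors, with 285 and 248 FPKM against 32 and 27, and in the Src family kinase Fgr (258 and 198 against 6 and 2). In that comparison 9 of the 19 were lower in basophils and 1, the kinase Src, higher, beside 8.66% of all genes lower and 5.30% higher. With papain 5 rose and 1 fell in basophils, beside 22.1% of all genes higher and 3.88% lower, where Fgr went to 18 and 20 FPKM (2.12 ± 0.56, adjusted p = 0.024) and Rel, an NF-kappaB subunit, fell from 95 and 86 to 36 and 22 (-1.65 ± 0.28, adjusted p = 0.00439). In eosinophils 1 was called, Ptpn6, lower in the CD11c-positive gate at 121 and 105 (-1.23 ± 0.33, adjusted p = 0.0441), and in natural helper cells 0 (limma).

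Genes for ligands and related receptors came from a second list, with 9 tested. Pdpn, podoplanin, the ligand of the platelet receptor Clec1b, rose with papain in basophils (3 and 0 to 81 and 108 FPKM, 5.56 ± 0.57, adjusted p = 0.000501) and in both eosinophil gates (1 and 2 to 28 and 17, and to 63 and 63). Podoplanin is also known from lymphatic vessels, fibroblasts and alveolar epithelium. In papain basophils 5 of 7 lymphatic, 7 of 7 fibroblast and 8 of 12 epithelial markers were called higher. Pdpn itself belongs to the lymphatic list and is among those called, so that count is not separate from its rise. Clec1b itself stayed at 4 FPKM or less. A further list held 31 C-type lectins without a Clec symbol, 29 of them tested. In papain basophils 9 were higher and 2 lower, in CD11c-positive eosinophils 4 higher and 0 lower, in the CD11c-negative gate 2 and 0, and in natural helper cells 0 and 0. Of all genes 22.1% were higher in papain basophils, 9.93% in the CD11c-positive and 1.87% in the CD11c-negative gate. Cd69, an activation marker, fell in basophils from 253 and 316 FPKM to 52 and 83 (-2.09 ± 0.37, adjusted p = 0.00521). Among those that rose were Sele, a selectin of endothelial cells (2 and 0 to 31 and 220), Thbd, thrombomodulin (5 and 0 to 64 and 53), and the epithelial genes Reg3g (19 and 0 to 210 and 2362) and Sftpd (8 and 14 to 74 and 91). Olr1, an oxidised lipoprotein receptor, had 69 and 132 FPKM in naive eosinophils, 18 and 12 in naive basophils and 1 and 0 in naive natural helper cells, and was called in all 3 comparisons.

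The remaining 10 members did not exceed 4 FPKM in any library. Clec9a, a receptor of cross-presenting dendritic cells for exposed actin filaments, had 0 to 4 FPKM, with values above 0 in 5 libraries. Clec16a, an endosomal protein named with the family, had 1 to 3 in all 15. Clec1b had 0 to 4, Clec4g and Clec2l 0 to 2, and Clec2h and Clec3a 0 to 1.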

How the data were processed

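RNA of sorted lung basophils, eosinophils and natural helper cells was sequenced after poly(A) selection, per the labels' protocols. The submitters' processing notes name TopHat 1.4.0, Cufflinks 1.3.0 and the build mm9. Each deposited score is taken as FPKM that the authors rounded to whole numbers, from those tools and the values. The annotation and any filter are not given in the sources used here, and depth is unknown. All 15 columns were matched by title. Commas were removed from 1008 cells, and 3 cells near 0 were set to 0.

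The 14257 genes that reached 1 FPKM in 2 or more libraries were tested as log2(FPKM + 1) with limma 3.58.1 (R 4.3.3): 1 model with a coefficient per group over all libraries, eBayes with a mean-variance trend, and p-values (two-sided) adjusted by Benjamini-Hochberg over all these genes, threshold 0.05. The pipeline was tested on simulated data. The 12 comparisons were 3 between naive types, 4 of papain with naive, the CD11c gates, 3'UTRKO, and 3 differences of papain responses. Alternatives were other pseudocounts (0.5 and 2), filters (none, or 5 FPKM), scalings, groups fitted, no trend, a replicate block, and each library left out. Members and lists were chosen with earlier results of these data known. Values by library are given for members with a group mean of 5 FPKM or more or with a call. Up to 5 called genes a comparison with such a mean were named from the adaptor, ligand and lectin lists, by size of difference, and a few others after their values were seen. A few genes of these lists are counted but not reported here by name. Marker lists of 17 cell types were described only where they moved with a result.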

Additional observations from a re-analysis of the deposited data

Results flagged for a closer look

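Clec3b was the member whose papain response differed between cell types by a test of the difference itself. The response was 5.95 higher on the log2 scale in basophils than in natural helper cells (2 and 0 to 97 and 49 FPKM, against 58 and 61 to 37 and 40). It was -5.65 in natural helper cells relative to CD11c-negative eosinophils, which went from 0 and 1 to 49 and 42 FPKM. The first was kept under all 17 alternatives, and the second was lost without naive eosinophil library 1, CD11c-negative library 1, or either papain natural helper library (adjusted p = 0.0887 at most). No group has more than 2 libraries, so single libraries could not be checked for standing apart within a group.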

How the results depend on the processing

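Of the 33 member calls, 33 were kept with a pseudocount of 0.5, under median-ratio scaling and without the variance trend, 32 after quantile normalization, 29 with a pseudocount of 2 and 27 without a filter. The stricter filter tested 28 of them and kept 28. Fits of the compared groups alone kept 21, and 103 of 140 fits with a library left out kept their call. No call changed direction. With only the compared groups fitted, counts of members called moved from 7 to 0 (papain basophils), 7 to 3 (naive basophils against natural helper cells), 0 to 1 (papain natural helper cells), 1 to 2 (CD11c-negative eosinophils), 0 to 2 (3'UTRKO), and for papain responses 1 to 2 (basophils against natural helper cells) and 1 to 3 (natural helper cells against eosinophils). Quantile normalization gave 5 in place of 3 in CD11c-positive eosinophils, and a pseudocount of 2 gave 2 in place of 1 for the first of these responses. With single libraries left out, counts ranged from 2 to 3 for naive basophils against eosinophils, were 4 against natural helper cells, 3 to 9 for papain basophils, 0 to 2 between the CD11c gates, and 1 to 3, 0 to 2 and 0 to 1 for the responses of basophils against natural helper cells, basophils against eosinophils, and natural helper cells against eosinophils. Among uncalled differences, Clec4b1 between the gates (-1.20) ranged from -2.70 to 0.30 with single libraries left out, turning without CD11c-positive library 2. Clec11a between the responses of basophils and natural helper cells (1.29) ranged from -0.50 to 3.085, turning without papain basophil library 1. The cause was not tested.

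Replicate numbers are shared between groups, but the labels do not say that they pair libraries. Deviations of same-numbered libraries correlated between -0.153 and 0.116 over 21 pairs of groups. With the number as a replicate block, 30 of the 33 calls were kept and papain basophils had 7 members called. The 3 lost were Clec2g (in 2 comparisons) and Clec5a. Values of 0 to 3 FPKM are limited by rounding, and depth behind them is unknown.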
